A study of Mus musculus with 10 samples.

Results

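The miR-379 to miR-410 cluster is a row of imprinted microRNA hairpins on mouse chromosome 12. Its members were taken by position alone, as every mature miRNA of the deposited table on the plus strand of that stretch of chromosome 12 in GRCm38, from miR-379-5p (start 109709065) to miR-3072-3p (end 109747949). There were 69 of them among the 1340 mature miRNAs of the table, from 37 hairpins. The small RNA libraries come from the outer coats of the eye, labelled RPE/choroid/sclera (the pigment epithelium behind the retina, the vessel layer and the white of the eye). The animals were C57BL/6J mice, wild type, at postnatal day 34. All animals had worn a -20 dioptre lens for 10 days from postnatal day 24 over a single eye, a treatment that drives the young eye toward myopia, while the fellow eye had none. The libraries fall into 5 left and 5 right eyes with the shared numbers 61, 64, 65, 66 and 68. Which eye wore the lens is not in the labels, so left and right eyes each may hold treated and untreated eyes, and no library is called treated here.

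As background, the cluster belongs to the Dlk1-Dio3 imprinted domain, where the noncoding RNAs and miRNAs are made from the maternally inherited chromosome only. The hairpins are thought to be cut from long precursor transcripts, the last of which is annotated as Mirg. The cluster is best known from brain, where its transcription rises with neuronal activity through the factor Mef2 and where miR-134-5p restrains dendritic spines by repressing Limk1. It is also active in the embryo and placenta, and is lower in most adult tissues outside the brain. A hairpin can yield a miRNA from its 5′ side (5p arm) and from its 3′ side (3p arm), and the seed, bases 2 to 8 of the mature miRNA, does most of the target recognition.

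The RefSeq table (GRCm38.p6) held a mature sequence for 65 of the 69 members. No sequence is printed for miR-376c-3p, miR-487b-3p, miR-539-3p and miR-485-5p. The sequences below start with the most abundant members, with miR-369-3p beside the other arm of its hairpin. Then come members that varied with or against miR-541-5p, then members that are near-identical or share a seed. All are 5′ to 3′ with the seed in capitals.
miR-411-5p: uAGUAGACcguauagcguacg
miR-541-5p: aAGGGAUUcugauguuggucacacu
miR-410-3p: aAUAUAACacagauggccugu
miR-381-3p: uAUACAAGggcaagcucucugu
miR-300-3p: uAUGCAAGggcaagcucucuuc
miR-409-3p: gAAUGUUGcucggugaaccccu
miR-369-5p: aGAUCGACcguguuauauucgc
miR-369-3p: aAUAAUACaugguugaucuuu
miR-382-5p: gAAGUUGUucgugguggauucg
miR-382-3p: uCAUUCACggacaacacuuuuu
miR-134-5p: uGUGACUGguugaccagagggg
miR-666-5p: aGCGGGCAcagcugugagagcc
miR-376b-3p: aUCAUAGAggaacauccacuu
miR-376a-3p: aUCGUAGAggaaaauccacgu
miR-376b-5p: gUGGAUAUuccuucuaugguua
miR-376c-5p: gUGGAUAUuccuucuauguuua
miR-379-5p: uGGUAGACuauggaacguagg
miR-1193-5p: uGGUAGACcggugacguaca
miR-379-3p: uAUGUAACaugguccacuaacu
miR-411-3p: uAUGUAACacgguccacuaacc

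The seeds of these miRNAs were mostly their own. The pair miR-379-5p and miR-1193-5p shared a seed, as did miR-379-3p with miR-411-3p, miR-376c-5p with miR-376b-5p, and the low miR-494-5p with miR-410-5p. Beyond the seed, miR-376c-5p and miR-376b-5p differed at 1 position (U19G, counted from 1 at the 5′ end, miR-376c-5p first). The 3p arms of miR-379 and miR-411 differed at 2 positions (U10C and U22C, miR-379-3p first). Those of miR-300 and miR-381 differed at 3 (G4A, U21G and C22U, miR-300-3p first), of which G4A lies in the seed. The 3p arms of miR-376b and miR-376a also differed at 3 (A4G, C13A and U20G, miR-376b-3p first). How the authors assigned reads that fit both members of such a pair was not given in the sources used here, so the split between near-identical members is uncertain.

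The table holds a normalised signal and no read counts, so the depth of each library is unknown. Sums of the 10 libraries lay within 11878152 and 11879036, and abundant miRNAs take values from a shared ladder of ranks: miR-411-5p had 8 and miR-541-5p 9 different values in 10 libraries. The tissue was checked by marker miRNAs: the pigment epithelium pair miR-204-5p and miR-211-5p summed to between 1959 and 1989 k (k for 1000 units of signal) and the fibroblast and smooth muscle list to between 845 and 1074 k. Photoreceptor miRNAs, which belong to the neural retina, summed to 167 to 449 k in 9 libraries and to 1285 k in right eye 68, and the neuronal list to 18.5 to 27.0 k and to 49.8 k in the same eye. The extraction protocol names retinae, the tissue field does not. The labels do not say in words that a number is an animal, so the p-values given here measure only the spread between these samples, which may be technical. In bulk tissue, fewer cells of a type and less RNA per cell cannot be told apart.

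The cluster made up a small, even part of the miRNA signal. Its 69 members summed to 79.0, 81.2, 68.9, 78.9 and 82.6 k in left eyes 61, 64, 65, 66 and 68, and to 83.5, 70.5, 75.2, 85.6 and 75.2 k in the right eyes of the same numbers. Left and right eyes overlapped, with left eye 65 lowest and right eye 66 highest. This was 78.1 ± 5.53 k (SD, n = 10), or 0.580 to 0.721% of all signal in a library. Right eye 68, with the high photoreceptor sum, lay within the range of the other libraries at 75.2 k.

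A pair of 5p arms at the opposite ends of the cluster held most of that signal. miR-411-5p made up 46.0% of it, and together with miR-541-5p it made up 77.6%, from 75.5 to 78.8% in single libraries. The next 6 members, miR-410-3p, miR-381-3p, miR-300-3p, miR-409-3p, miR-485-5p and miR-369-5p, raised the share to 91.2%. The other 61 members held 8.77%.

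miR-411-5p lies 1.125 kb after the start of miR-379-5p, outside any annotated gene (chr12:109710190-109710210), and ranked 43rd of all miRNAs by mean signal. Its signal was 32919, 33579, 31564, 37005 and 42962 in left eyes and 33579, 30387, 37868, 39684 and 39684 in right eyes (numbers 61, 64, 65, 66 and 68 in this order, as in all such lists below). It was highest in left eye 68 and lowest in right eye 64, and the 2 sides overlapped. The mean was 35923 ± 4116 (SD, n = 10).

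miR-541-5p lies in an intron of Mirg near the far end (chr12:109742422-109742446), 33.4 kb from the start of miR-379-5p, and ranked 52nd. Its signal was 28901, 30387, 21427, 25150 and 20729 in left and 31564, 25150, 19988, 26150 and 17084 in right eyes, with a mean of 24653 ± 4788 (SD, n = 10). Unlike miR-411-5p it was lowest in number 68 and highest in number 61. The ratio of miR-411-5p to miR-541-5p was 1.14, 1.11, 1.47, 1.47 and 2.07 in left eyes and 1.06, 1.21, 1.89, 1.52 and 2.32 in right eyes. Both eyes of number 68 lay above the other 8 libraries in this ratio, and left and right eyes overlapped.

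Among the next members, miR-410-3p of the last abundant hairpin, in an exon of Mirg, had 2956, 3265, 3085, 3265 and 3976 in left and 3700, 2754, 3553, 3976 and 3850 in right eyes. miR-381-3p had 1853, 2059, 1752, 1853 and 2373 in left and 1729, 1593, 1929, 2188 and 2473 in right eyes. Its near-identical neighbour miR-300-3p had 1659, 1688, 1659, 1729 and 2059 in left and 1593, 1524, 1811, 2059 and 2059 in right eyes. All 3 were lowest in right eye 64 and at or near their highest in number 68, as miR-411-5p was.

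The remaining 3 of the leading 8 differed in pattern. miR-409-3p was nearly level, with 1555, 1452, 1387, 1688 and 1424 in left and 1555, 1481, 1618, 1688 and 1452 in right eyes. miR-485-5p, known in neurons for lowering synapse number and strength, had 1250.1, 1177, 786, 919 and 771 in left and 1358, 999, 797, 969 and 786 in right eyes. It was highest in number 61, like miR-541-5p. miR-369-5p had 1009, 831, 831, 939 and 1128 in left and 969, 724, 886, 939 and 1073 in right eyes, lowest in right eye 64 and highest in number 68.

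**Figure D1:**
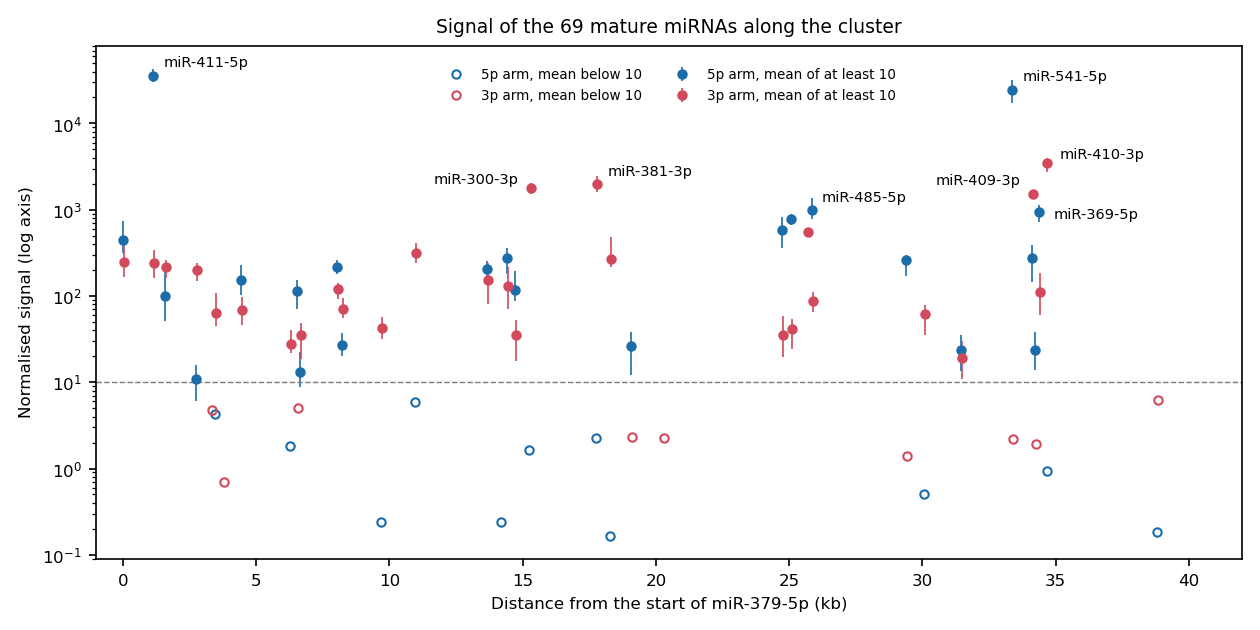
Mean normalised signal of each of the 69 mature miRNAs (log axis) against distance from the start of miR-379-5p in kb; filled points are the 49 members with a mean of at least 10 with the lowest and highest of 10 libraries as bars, open points the 20 members below. miR-411-5p and miR-541-5p, near the ends, stand above all other members at 35923 and 24653.

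Abundance did not follow position in any simple way. Beside the 2 leaders, 4 members had means above 1000, 24 from 100 to 1000, 19 from 10 to 100 and 20 below 10. The 44 members before the annotated start of Mirg (a long intergenic noncoding RNA, chr12:109729764-109749460, plus strand) held 55.9% of the cluster signal and the 25 inside Mirg 44.1%. Of those 25, 9 lay in exons and 16 in introns. The first hairpin, miR-379, gave only 447 ± 129 from its 5p arm, against 35923 from the miR-411 hairpin that follows it. From miR-299a to miR-376a, the kept members lay between 10.998 (miR-380-5p) and 313 ± 56.3 (miR-667-3p). The neuronal miR-134-5p stood at 781 ± 82.5, miR-382-5p at 589 ± 163 and miR-668-3p at 555 ± 38.4. The last hairpin of the interval, miR-3072, had means of 0.182 and 6.30 for its arms.

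Of the 69 members, 49 had a mean of at least 10 over the 10 libraries and entered the tests, and none of these was at 0 in any library. Of the 20 below, 15 were listed at 0 in at least 1 library and none in all 10. Just inside the limit were miR-380-5p at 10.998 and miR-1193-5p at 13.1, and just outside it miR-3072-3p at 6.30 and miR-667-5p at 5.93. Members of the cluster varied about as much as other miRNAs: the median coefficient of variation over the 10 libraries was 21.9% for the 49 and 23.2% for all 588 miRNAs kept. It ran from 6.92% for miR-668-3p to 49.1% for miR-299a-5p among the 49, where right eye 65 had 225 and the other libraries 51.5 to 126.

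The arms were used very unevenly, and which arm led changed from hairpin to hairpin. Over all members, 5p arms held 84.8% of the signal, because both leaders are 5p arms. Of 32 hairpins with at least 1 arm kept, 17 had both arms kept and 15 had 1. Among the 17, the 5p arm led in 12 and the 3p arm in 5 (miR-299a, miR-380, miR-1193, miR-543 and miR-409). Among the 14 with both arms listed and 1 kept, the 3p arm led in 9 and the 5p arm in 5. Counted over all hairpins of the table with both arms kept, the 5p arm led in 90 of 158.

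The most one-sided hairpin was miR-541, with 24653 from the 5p arm and 2.19 from the 3p arm. It was followed by miR-410 with 0.929 from the 5p and 3438 from the 3p arm. In the near-identical pair the 5p arms were also scarce, at 1.63 for miR-300 and 2.27 for miR-381, against 1784 and 1980 from the 3p arms. For miR-487b the arms gave 0.166 and 267. The other leading hairpin, miR-411, was less extreme, with 35923 from the 5p and 241 ± 52.6 from the 3p arm, a ratio of means of 149.

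At the other end, 4 of the 17 hairpins had mean signals of the 2 arms within 2-fold: miR-377 (1.24), miR-376c (1.35), miR-379 (1.79) and miR-666 (1.80). In all of the 158 hairpins this held for 27. The leading arm was the same in all 10 libraries in 14 of the 17. The exceptions were miR-377, where the 5p arm was higher in 7 libraries, miR-376c, where it was higher in 9, and miR-299a, where it was higher in right eye 65 alone. The 3 hairpins of the miR-376 group, whose precursors are known for A-to-I editing in brain, all had the 5p arm ahead on average: 207 against 154 for miR-376c, 274 against 129 for miR-376b and 117 against 34.8 for miR-376a. Edited reads carry a changed base, and their counting was not given in the sources used here.

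The ratio of arms could differ several-fold between libraries. For miR-382, the log2 ratio of 5p to 3p signal was 4.53, 4.48, 4.23, 4.28 and 2.83 in left and 5.35, 4.90, 3.07, 3.71 and 3.15 in right eyes. It was highest in right eye 61 and lowest in left eye 68, a 5.73-fold range. For miR-134 the range was 1.92-fold, around a mean log2 ratio of 4.24 ± 0.29 (SD, n = 10), and for miR-411 it was 1.82-fold around 7.24 ± 0.29. The plot of arm ratios shows every library of the 17 hairpins. Ratios are of normalised signals, in which rank steps enter.

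**Figure D2:**
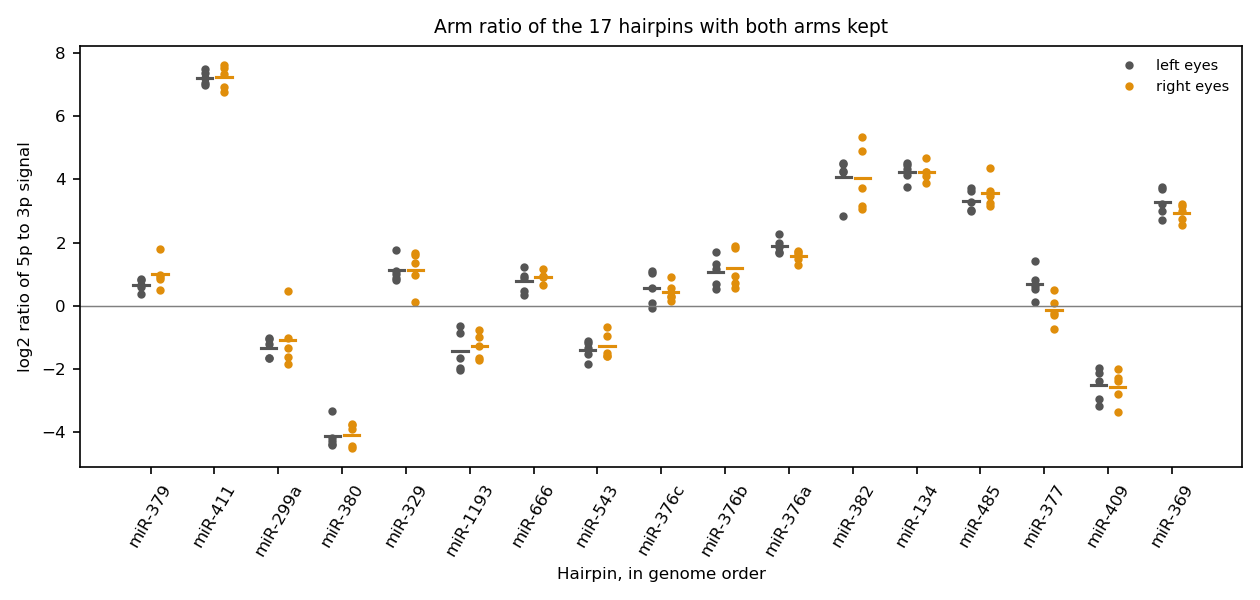
The log2 ratio of 5p to 3p signal for the 17 hairpins with both arms kept, in genome order, each point a library (grey left, orange right eyes, 5 each) and each bar the mean of a side. Points above 0 have the 5p arm ahead, as in all libraries for miR-411, and the widest spread between libraries is in miR-382.

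Members of the cluster tended to rise and fall together over the libraries, but loosely. Over all 1176 pairs of the 49 kept members, the median Pearson correlation of log2(signal + 1) was 0.18, with a middle range from -0.13 to 0.45. The median over all pairs of miRNAs kept was 0.00 to 2 decimals, and between cluster and other miRNAs it was also 0.00. In the cluster 20.5% of pairs were above 0.5 and 5.95% below -0.5, against 14.7% and 13.9% over all pairs. These are descriptions over 10 libraries that share 5 numbers and so are not independent points, and no p is given. Without right eye 68 the median in the cluster was 0.24.

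The shared variation was also present between the eyes of a number. After each library was set against the mean of its number, a step added after the data were seen, the median over cluster pairs was 0.30, and over all pairs it was 0.01. Each correlation after this step rests on 5 right-left differences. Of the variance of log2 signal, a median of 61.7% lay between numbers for the 49 members and 60.5% for all miRNAs that vary. With 5 numbers, a good part of the variance lies between them even where the number has no effect. Only 2 of 5 left eyes were most alike to the right eye of their number. The median was 0.27 for hairpins that start within 5 kb of each other and 0.22 for those over 15 kb apart. Pairs at distances in between were not summarised. Over all cluster pairs the median was 0.18, lower than in both classes, so no steady change with distance is shown. For arms of the same hairpin it was 0.23 over the 17 hairpins, against 0.20 between 5p arms, 0.27 between 3p arms and 0.12 between opposite arms of different hairpins.

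Within this loose average, some members varied with miR-541-5p and others against it. With miR-541-5p, 8 of the other 48 kept members correlated above 0.5: miR-382-5p (0.94), miR-485-5p (0.92), miR-679-5p (0.90), miR-299a-3p (0.76), miR-666-5p (0.75), miR-134-5p (0.65), miR-154-5p (0.64) and miR-1193-5p (0.60). Another 9 correlated below -0.5, among them miR-376a-5p (-0.75), miR-487b-3p (-0.74), miR-380-3p (-0.73), miR-376b-3p (-0.64), miR-300-3p (-0.58) and miR-411-5p itself (-0.50). Counts of this size are common: over all pairs of miRNAs kept, 14.7% were above 0.5 and 13.9% below -0.5. miR-134-5p stood furthest from miR-411-5p among these sets, at -0.77. The 8 were 5p arms in 7 cases, and the 9 were 3p arms in 7. The 31 members in between were 12 5p and 19 3p arms, and all kept members 22 5p and 27 3p arms. Members that followed miR-411-5p closely were miR-300-3p (0.93), miR-376b-3p (0.93), miR-369-3p (0.89), miR-376c-3p (0.89), miR-410-3p (0.86) and miR-381-3p (0.86). Of these, miR-369-3p, miR-376c-3p, miR-410-3p and miR-381-3p were not among the 9, at -0.40, -0.45, -0.32 and -0.496 with miR-541-5p. The sets are named from their values and were not tested.

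The miR-382 hairpin had the lowest correlation between its arms among the 17 hairpins. The next lowest was miR-299a at -0.22, and the median was 0.23. miR-382 was picked as the lowest of the 17 after its values were seen, so its value describes the choice. miR-382-5p had 724, 797, 538, 544 and 427 in left and 831, 622, 363, 639 and 407 in right eyes, high in numbers 61 and 64 and low in right eye 65 and number 68. miR-382-3p had 30.5, 34.9, 27.8, 27.1 and 59.1 in left and 19.4, 19.9, 42.5, 47.7 and 45.02 in right eyes, high in number 68 and low in right eyes 61 and 64. Across the 10 libraries the arms correlated at -0.59 (Spearman -0.48). The correlation was -0.71 without number 66 and -0.39 without number 68. It was 0.03 when each library was set against the mean of its number, which rests on 5 right-left differences.

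miR-376b-3p showed the same rise in number 68, with 93.1, 109, 111, 106 and 215 in left and 96.4, 70.7, 152, 157 and 179 in right eyes. It followed miR-411-5p at 0.93 (Spearman 0.85), and at 0.89 within numbers. Against miR-541-5p it stood at -0.64, at -0.39 without number 68, and at 0.56 within numbers. The leaders themselves had -0.50 (Spearman -0.42) over the 10 libraries, -0.18 without number 68 and 0.38 within numbers. The opposition between these members was smaller without number 68 and was not seen between the eyes of a number. Values within numbers rest on 5 right-left differences each, too few to place the opposition. Without the 2 libraries farthest from the median of miR-541-5p, right eyes 65 and 68, the correlation of the leaders was -0.34.

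**Figure D3:**
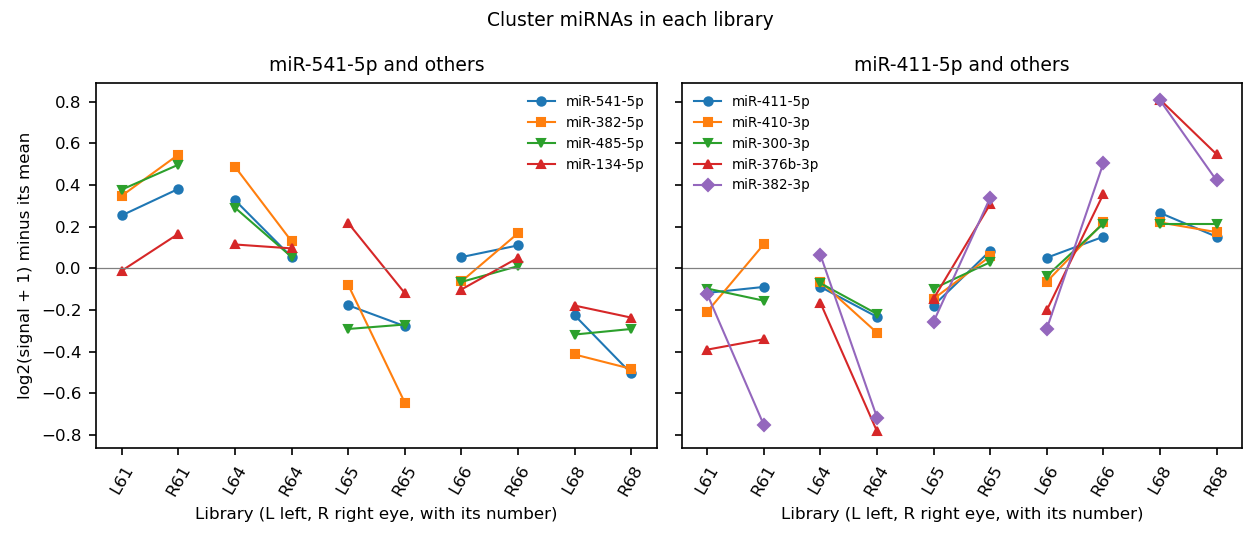
Deviation of log2(signal + 1) from its mean over the 10 libraries for 4 members of the miR-541-5p set (left) and 5 members of the miR-411-5p set (right); each point is a library and lines join the eyes of a number. In number 68 miR-541-5p, miR-382-5p, miR-485-5p and miR-134-5p lie below their means, while miR-411-5p, miR-410-3p, miR-300-3p, miR-376b-3p and miR-382-3p exceed theirs.

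**Figure D4:**
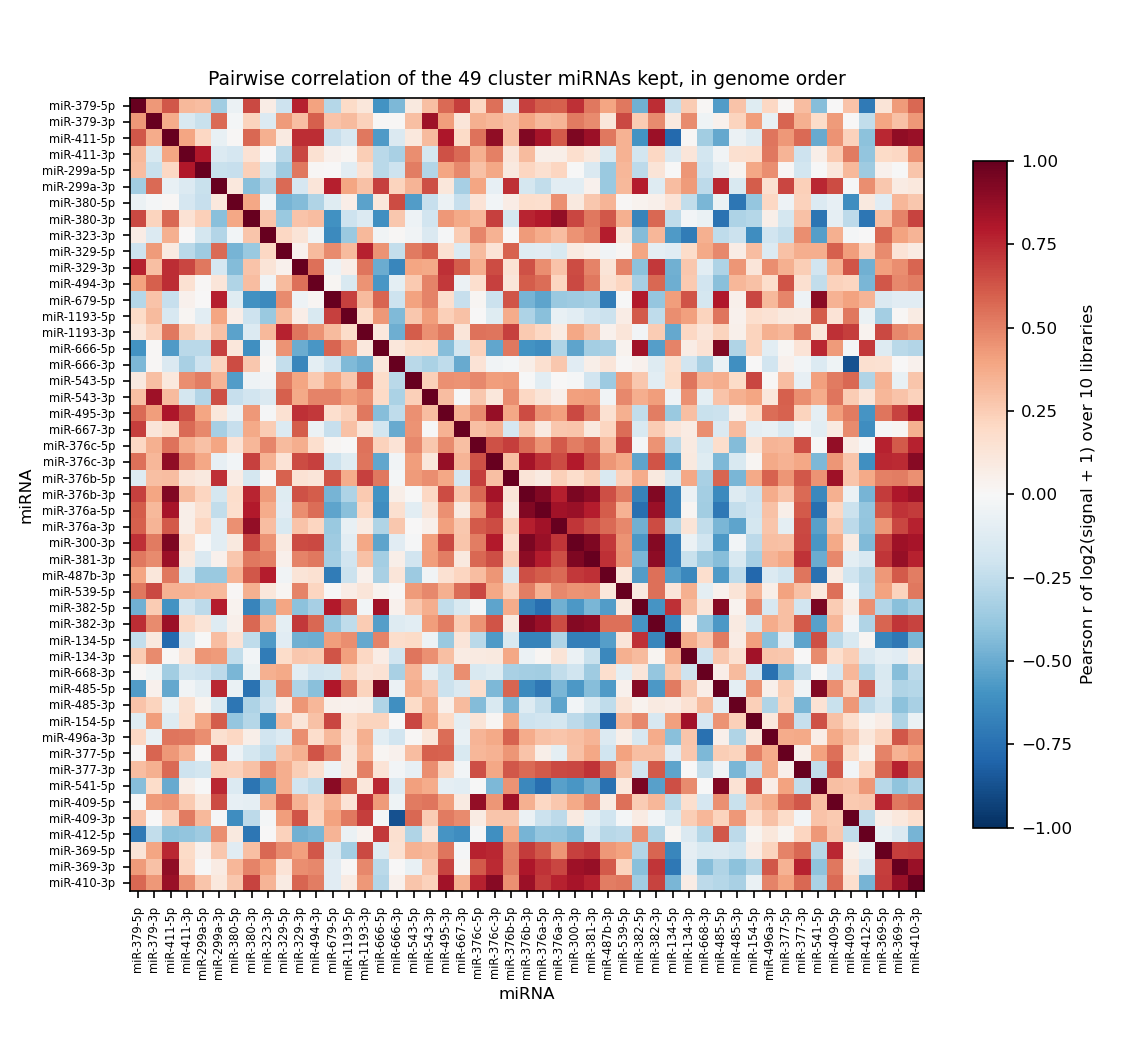
Pearson correlation of log2(signal + 1) over the 10 libraries for every pair of the 49 kept members in genome order, from blue (-1) to red (1). Values run from -0.87 (miR-666-3p with miR-409-3p) to 0.94, and red cells outnumber blue ones, as 66.4% of pairs are above 0.

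Apart from the leaders, base composition of the mature sequence tended to go with this division. Of the 8 members above 0.5 with miR-541-5p, 7 had a sequence, with a median GC content of 54.5% (50 to 68.2%). Of the 9 below -0.5, 8 had one, with a median of 41.9% (36.4 to 52.4%). The 30 with a sequence in between had 45.5%. Some printed sequences show the contrast, from miR-666-5p at 68.2% and miR-134-5p at 59.1% to miR-376b-3p at 38.1% and miR-382-3p at 36.4%. The leaders did not show it: miR-541-5p had 44% and miR-411-5p 47.6%. Over the 45 other members with a sequence, the rank correlation between GC content and the correlation to miR-541-5p was 0.46, and to miR-411-5p it was -0.67. Over 455 miRNAs outside the cluster the same values were 0.36 and -0.39. Without number 68 the values in the cluster were 0.16 and -0.39. These are correlations across miRNAs, which share libraries and are not independent, and the part of base composition in the result was not tested.

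Some marker sums differed between numbers 61 and 64 and the other numbers, a grouping that was not set beforehand. Leukocyte markers summed to 9.61 to 10.5 k in the 4 libraries of numbers 61 and 64 and to 11.2 to 15.6 k in the other 6, and the erythroid pair to 0.986 to 1.16 k and 1.27 to 2.32 k in the same sets. Endothelium markers were at 198 to 219 k and at 214 to 342 k, and surface epithelium markers at 113 to 245 k and at 25.3 to 201 k. These last ranges overlapped, as did those of the pigment epithelium, photoreceptor, neuron, striated muscle, and fibroblast and smooth muscle lists. Eyes of a number could also differ: in number 66 surface epithelium markers were at 201 k left and 25.3 k right, and endothelium markers at 214 and 342 k. In number 68 leukocyte markers were at 15.6 k left and 12.7 k right, and striated muscle markers at 104 and 50.4 k. The fibroblast and smooth muscle list there was at 1074 and 858 k. How many of all miRNAs kept separate numbers 61 and 64 from the others was not counted. The part of these cell types in the division of the cluster was not tested.

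Some neighbours of the cluster in the imprinted domain varied with one of the leaders, and others with neither. Of 31 other mature miRNAs of the domain in the table, 21 were kept, and the 31 summed to 363 ± 53.04 k (SD, n = 10), with miR-127-3p alone at 318175 ± 51212. miR-136-5p and miR-434-3p, of the hairpins antisense to Rtl1, followed miR-411-5p at 0.89 and 0.93, and miR-541-5p at -0.66 and -0.59. miR-673-3p followed miR-541-5p at 0.97, and miR-540-3p followed it at 0.90. The abundant miR-127-3p stood at 0.34 to miR-541-5p and 0.30 to miR-411-5p, and miR-370-3p at 0.09 to both. The median over pairs of a cluster member with a domain neighbour was 0.13, and over pairs of neighbours 0.08. The closest such pair was miR-300-3p with miR-136-5p, at 0.98.

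Right and left eyes were then compared for each member, in a fit over all 588 miRNAs kept with the shared number as a block. None of the 49 members passed an adjusted p of 0.05 in limma, and none had an unadjusted p under 0.05. Over all 588 miRNAs, 0 (0%) passed and 13 (2.21%) had an unadjusted p under 0.05. The log2 difference of right minus left was above 0 in 31 members and below 0 in 18, with a median of 0.03, against 0.02 over all 588. It ran from -0.49 for miR-377-5p to 0.41 for miR-376a-3p. The 95% interval lay within 2-fold in either direction for 48 of the 49 members, the exception being miR-377-5p. Values of abundant members move in rank steps, which enter these intervals.

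The pairs did not move one way. In number 66, the right eye was above the left in 40 members and below it in 7 (median log2 difference 0.23). Number 65 had 31 above against 18 below (0.13). Number 64 had 8 above against 41 below (-0.20). Number 68 had 15 against 33 (-0.12). For number 61 the split was 27 against 20 (0.05). The cluster sum followed, with right eye 64 below and right eye 66 above its partner. Over all 588 miRNAs the median of each pair lay between -0.07 and 0.06.

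Both leaders differed little between sides. For miR-411-5p the log2 difference was 0.03 ± 0.08 (SE, 95% interval -0.16 to 0.21), with adjusted p = 0.969 in limma. For miR-541-5p it was -0.09 ± 0.08 (-0.29 to 0.10), with adjusted p = 0.967 in limma. miR-410-3p had 0.10 ± 0.10, miR-409-3p 0.06 ± 0.08, miR-300-3p 0.03 ± 0.09, miR-485-5p 0.00 ± 0.09, miR-381-3p -0.01 ± 0.10 and miR-369-5p -0.05 ± 0.08. The sign for miR-411-5p, miR-300-3p, miR-485-5p and miR-381-3p turned when a number was left out.

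Members with one direction in all 5 pairs were few. 1 of the 49 was higher in all 5 right eyes, against 12 of 588 (2.04%), and 2 were lower in all 5, against 5 of 588 (0.85%). miR-1193-5p had 11.1, 14.5, 9.97, 12.3 and 8.91 in left and 16.1, 15.03, 10.7, 22.4 and 10.5 in right eyes, a log2 difference of 0.33 ± 0.24 (SE). The sides overlapped, the widest gap was in number 66, and the difference was 0.21 without it. miR-485-3p, the lesser arm of miR-485, had 100.2, 88.3, 97.7, 112 and 78.9 in left and 65.3, 78.9, 88.3, 100.2 and 69.7 in right eyes (-0.25 ± 0.12). Several of its values recur on both sides, as rank steps do, and the difference was -0.16 without number 61. miR-494-3p, studied in vessel growth after ischaemia, had 25.7, 21.9, 25.4, 34.7 and 40.7 in left and 22.8, 21.6, 23.2, 33.1 and 25.9 in right eyes (-0.20 ± 0.18). The widest gap was in number 68, and the difference was -0.093 without it. The adjusted p of each was 0.967 in limma.

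**Figure D5:**
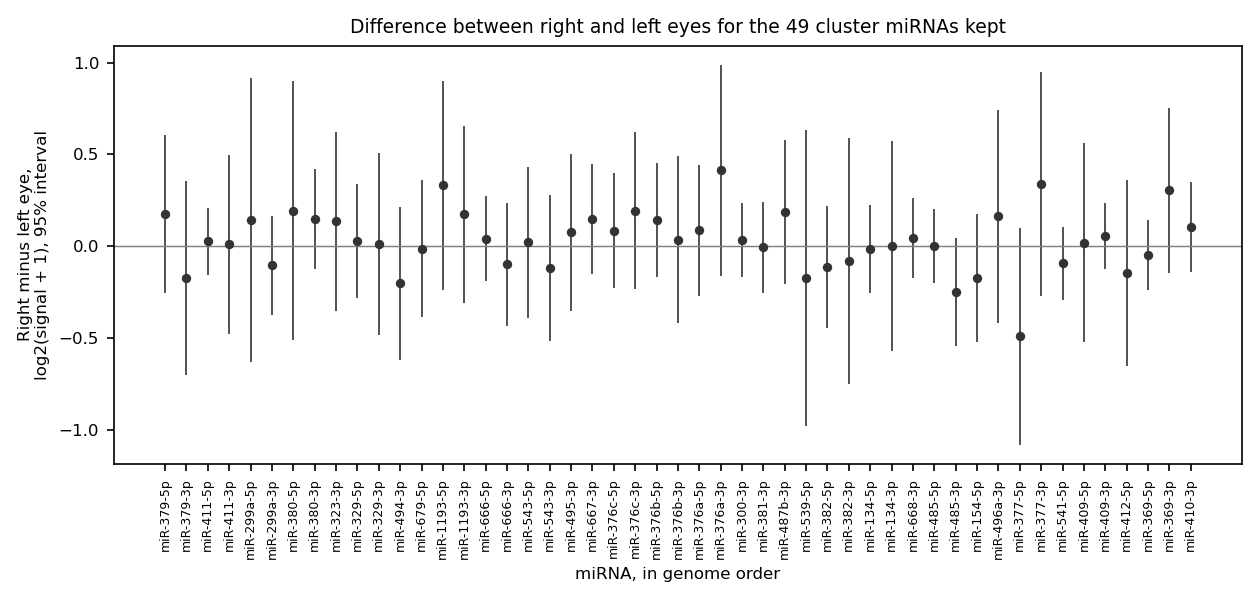
Difference between right and left eyes in log2(signal + 1) for the 49 kept members in genome order, with the 95% interval from limma (5 pairs). All intervals cover 0, and the outermost points are miR-377-5p at -0.49 and miR-376a-3p at 0.41.

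The last comparison asked whether arm use differed between the sides. None of the 17 cluster hairpins passed in limma, where 0 of 158 (0%) passed over the table. At an unadjusted p under 0.05 there was 1 of the 17 and 3 of the 158 (1.9%). That hairpin was miR-377, whose log2 ratio of 5p to 3p was 0.11, 0.82, 0.61, 1.42 and 0.54 in left and 0.50, -0.29, -0.22, 0.09 and -0.74 in right eyes. It was lower in the right eye in 4 of 5 pairs, with number 61 the other way, and the sides overlapped. The difference was -0.83 ± 0.26 (SE, adjusted p = 0.792 in limma). Without number 61 it was -1.14, with adjusted p = 0.0342 in limma. As number 61 was the only pair with the opposite sign, leaving it out was bound to widen the difference. Without number 64 the difference was -0.76 and without number 65 -0.83, with adjusted p = 0.794 and 0.959 in limma. It was smallest, at -0.70, without number 66. Both arms are low, at 23.8 ± 7.71 and 19.2 ± 5.90.

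The next 2 hairpins by unadjusted p were miR-379 and miR-369. For miR-379 the log2 ratio was 0.36, 0.67, 0.82, 0.84 and 0.60 in left and 0.49, 0.86, 1.79, 0.90 and 0.98 in right eyes, higher in all 5 right eyes, which held for 5 of the 158 hairpins (3.16%). The difference was 0.35 ± 0.16 (SE), and 0.19 without number 65, whose right eye stood apart. For miR-369 the left eyes had 3.69, 2.9995, 3.77, 3.23 and 2.72 and the right eyes 3.18, 3.21, 2.99, 2.73 and 2.55. The right eye had the lower ratio in 4 of 5 numbers, with a difference of -0.35 ± 0.16. None of the 17 was lower in all 5 right eyes, which held for 1 of the 158 hairpins (0.633%). Each had adjusted p = 0.792 in limma, and the sides overlapped in both.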

How the data were processed

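Per the submitters' processing notes, the authors used Bowtie and Partek with GRCm38 (mm10), with no versions. The deposited values are a normalised signal per mature miRNA, and how they were normalised was not given in the sources used here. Of the 134 highest ranks, 132 span less than 1 percent over the libraries, a form that quantile normalisation leaves. Only 7.31% of values above 0 are whole within 0.001, so no reads were recovered and no count model was used. Depth, counting intervals and floors are therefore unknown.

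Values were analysed as log2(signal + 1) for the 588 miRNAs with a mean of at least 10. Right and left eyes were compared in limma 3.58.1 (R 4.3.3), with a mean-variance trend, two-sided p-values, adjusted by Benjamini and Hochberg's method with a threshold of 0.05, checked on simulated data. The shared title number was a block, since the protocol sets a treated eye against the contralateral one. Same-numbered eyes' deviations from side means correlated at 0.12, 0.45, 0.01, -0.13 and 0.28 for 61, 64, 65, 66 and 68. Arm ratios used the 158 hairpins with both arms kept. Values in full are given for the 8 most abundant members, members with one direction in all 5 pairs and the 3 hairpins with the smallest p, and for miR-382 and miR-376b-3p, chosen after their values were seen. Ends are 1 base before the deposited stop, where RefSeq's lie. Exons and introns are from GENCODE (GRCm38). The members and lists were chosen with earlier results of these data known.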

Additional observations from a re-analysis of the deposited data

Results flagged for a closer look

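In 30 checks of 15 results, each side taken alone on the log2 scale, a single eye stood well apart from the remaining 4 in 2. These were miR-300-3p in left eye 68, at 2059, where the other left eyes had 1659 to 1729, and the cluster sum in left eye 65, at 68.9 k, where the other left eyes had 78.9 to 82.6 k. For miR-300-3p the value is a rank step that right eyes 66 and 68 share. Chance gives about 1 in 20 for independent values, and the cluster sum is not independent of its members.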

How the results depend on the processing

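The counts of miRNAs called between sides, over all and in the cluster, were 0 under every setting tried: pseudocounts 0.1 and 10, no filter, a mean of at least 100, median scaling, no replicate block, and leaving out a number. The fit without the replicate block called 0 miRNAs and 0 hairpins, so pairing changed no call and in 2 of 5 left eyes the closest right eye had the same number. With a number left out, the count of hairpins called ran from 0 to 1 over the table and in the cluster, the 1 being miR-377 without number 61. Number 61 was the only pair with the opposite sign for that ratio. With a number left out, the log2 difference of miR-381-3p ran from -0.068 to 0.085, of miR-485-5p from -0.028 to 0.061, of miR-411-5p from -0.032 to 0.069 and of miR-300-3p from -0.020 to 0.080. The other 7 of 11 named miRNAs kept their sign under each setting they were fitted in; miR-494-3p, miR-1193-5p and miR-485-3p have means under 100 and were not fitted with the limit of 100. Hairpins led by the 5p and the 3p arm numbered 17 and 14 with either arm kept and 6 and 1 with a mean of at least 100, where fewer hairpins enter. The median correlation in the cluster ran from 0.14 to 0.27 with a number left out and was 0.30 with numbers centred. The settings with numbers centred, without right eye 68, with GC content and for the named arm ratios were chosen after seeing the data. The rank correlation with GC content ran from 0.16 to 0.54 for miR-541-5p and from -0.68 to -0.39 for miR-411-5p, both nearest 0 without number 68. The cause was not tested. Rank steps and unknown depth limit what can be seen in the abundant and in the low members.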

Other observations

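The miRNAs outside the interval most like the mean of the 49 kept members, over the 10 libraries, came from several chromosomes. They were miR-350-3p (Pearson r 0.87, chromosome 1), miR-542-3p (0.87, chromosome X), miR-144-5p of red cells (0.85, chromosome 11), miR-140-5p of cartilage (0.83, chromosome 8) and miR-337-3p of the same imprinted domain (0.82, chromosome 12). They were picked as the highest correlations in the table, so the values describe the choice and carry no test.

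A few seeds of the cluster are shared with kept miRNAs elsewhere. miR-329-3p, at 69.3 ± 17.2 (SD, n = 10), has the seed of miR-362-3p, at 89.2 ± 30.03. miR-410-3p, at 3438 ± 437, has that of miR-344d-3p, at 17.3 ± 14.2, and miR-377-5p, at 23.8 ± 7.71, has that of miR-672-5p, at 155 ± 71.0. The low miR-412-3p, at 1.94 ± 1.47, has that of miR-1983, at 22.7 ± 9.49.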
